A study of Mus musculus with 4 samples.

Results

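The AT1-like cells described here are the cells that the authors' deposited annotation placed in class AT2 and in cluster 14, 1445 of 45936 cells in all. They came from mouse alveolospheres, organoids in which LysoTracker-positive alveolar type 2 (AT2) cells grew with PDGFRα-positive lung fibroblasts. In the knockdown group the AT2 cells were wild type and the transcriptional co-activators YAP and TAZ were knocked down in the PDGFRα-positive fibroblasts only; in the control group all cells were wild type. Doxycycline was given to both groups at 3 µg/ml between day 7 and collection on day 14, both groups had 2 libraries, and all 4 libraries carry the same batch label. Whether the libraries, called biological replicates in the labels, stem from different animals or cultures is not stated there, and p-values reflect only how these libraries vary, which may be technical. AT1-like cells numbered 437 and 249 in the knockdown libraries and 393 and 366 in the control libraries. They are set beside 2099 AT2 cells (deposited cluster 9) and 3052 transitional epithelial cells (the deposited class of that name).

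AT1 cells are the flat cells that cover most of the alveolar surface and exchange gas, and AT2 cells are cuboidal, make surfactant and act as their stem cells. During AT2 to AT1 conversion, cells pass through a transitional state with high keratin 8 and stress genes. In epithelial cells YAP and TAZ bind TEAD factors on DNA and are known to be needed for the AT1 fate. Here the knockdown was in the fibroblasts, so the comparison between groups addresses what changed in AT1-like cells grown beside them.

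The 4 libraries held 6508 to 15000 cells and 44284602 to 71523447 unique molecular identifiers (UMIs, counts of single captured RNA molecules). The AT1-like cells held 2690054 and 1779871 UMIs in the knockdown libraries and 1951693 and 1787551 UMIs in the control libraries. Their median depth was 5119 and 6163 UMIs per cell in the knockdown libraries, against 3778 and 4013.5 in the control libraries, so depth differed with the group. Their median mitochondrial share was 21.7% and 15.1% in the knockdown libraries and 20.3% and 17.7% in the control libraries, and the groups overlapped. Cell barcodes that occurred in more than 1 library numbered 1073 over all cells; 67 AT1-like cells had such a barcode, and 1 barcode was shared between AT1-like cells of different libraries. In the mesenchymal cells, the compartment that was targeted, Yap1 was at 39.3 and 36.7 CPM (UMI counts scaled to a fixed library total) in the knockdown libraries and 63.2 and 65.0 CPM in the control libraries. Wwtr1, the gene for TAZ, was at 187 and 173 CPM in knockdown mesenchymal cells and 248 and 231 CPM in control mesenchymal cells. Both targeted genes were thus lower in the targeted cells of both knockdown libraries than in either control library.

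The label was checked against 5 AT1 markers, and the values are a description, because the authors' clusters were made from the same genes. All 5 were higher in AT1-like than in AT2 cells and than in transitional cells in each of the 4 libraries. Clic5, a chloride intracellular channel protein (chromosome 17, 44188584 to 44280172, GRCm38), was at 165 and 133 CPM in knockdown AT1-like cells and 134 and 185 CPM in control AT1-like cells. In AT2 cells it was at 4.49 to 13.2 CPM and in transitional cells at 4.42 to 7.14 CPM, so the classes did not overlap. Rtkn2, a gene used as a marker of AT1 cells (chromosome 10, 67979570 to 68059740), was at 61.8 and 24.4 CPM in knockdown and 48.7 and 46.0 CPM in control AT1-like cells, against at most 3.99 CPM in AT2 cells and 2.31 CPM in transitional cells. Akap5, an anchoring protein of protein kinase A (chromosome 12, 76324891 to 76334153), was at 279 and 312 CPM in knockdown and 239 and 286 CPM in control AT1-like cells, against 42.4 to 55.1 CPM in AT2 cells and 80.1 to 121 CPM in transitional cells.

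Hopx, an atypical homeodomain protein (chromosome 5, 77086988 to 77115121), was at 99.0 and 144 CPM in knockdown and 66.5 and 86.3 CPM in control AT1-like cells, and at 12.2 to 16.4 CPM in AT2 cells. Ager, the receptor for advanced glycation end products (chromosome 17, 34597862 to 34600936), separated AT1-like from AT2 cells least of the 5 markers. It was at 1828 and 1330 CPM in knockdown and 1014 and 1704 CPM in control AT1-like cells, against 630 to 973 CPM in AT2 cells and 94.9 to 160 CPM in transitional cells. Ager RNA was therefore plentiful in the AT2 cells of these cultures as well. Of a further 22 AT1 genes, 18 reached 20 CPM, and 16 of these were higher in AT1-like than in AT2 cells in every library; the same count, 16 of 18, was found against transitional cells. Emp2, a membrane protein of AT1 cells, was at 852 to 1210 CPM in AT1-like cells, against 230 to 336 CPM in AT2 cells. Pdpn (podoplanin), a classic AT1 gene, was at 49.2 to 80.8 CPM in AT1-like cells, which overlapped with 63.5 to 79.5 CPM in AT2 cells but not with 13.5 to 19.6 CPM in transitional cells. Cav1, the caveolin of AT1 caveolae, was low, at 7.61 to 11.2 CPM in AT1-like cells, against 0 to 4.49 CPM in AT2 cells and 1.68 to 3.96 CPM in transitional cells.

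**Figure D1:**
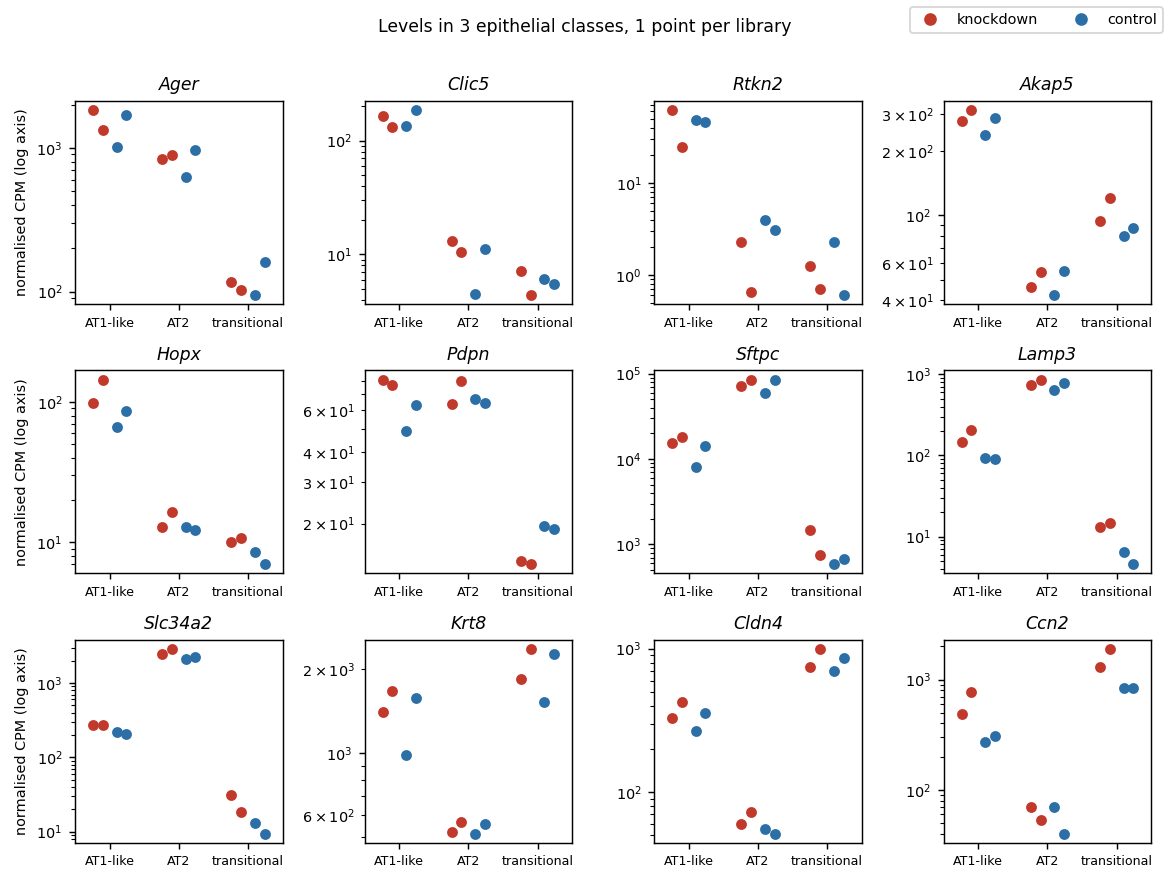
Normalised CPM (log axis) of 12 genes in AT1-like, AT2 and transitional cells, 1 point per library, knockdown in red and control in blue. Clic5, Rtkn2, Akap5 and Hopx are highest in AT1-like cells, Sftpc, Lamp3 and Slc34a2 lie between the other classes there, and Pdpn overlaps between AT1-like and AT2 cells.

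By their smallest ratio over the 4 libraries, the genes furthest above AT2 cells were led by Clic5, Mcam, Rtkn2, Gm2682 and Msln, followed by Myo16, Adgrg6, Cyp4f39, Tgfb2 and Kcnk2. Mcam, a cell adhesion molecule, was at 298 and 310 CPM in knockdown and 212 and 233 CPM in control AT1-like cells, against 12.8 to 23 CPM in AT2 cells. Msln (mesothelin) was at 126 to 167 CPM in AT1-like cells and 3.29 to 14.5 CPM in AT2 cells, but at 149 to 191 CPM in transitional cells, so it did not separate AT1-like from transitional cells. The genes furthest below AT2 cells included Lrg1, Hdc (histidine decarboxylase), Lcn2 (lipocalin 2) and Chil1. Lrg1 was at 62.6 and 29.9 CPM in knockdown and 70.1 and 66.1 CPM in control AT1-like cells, against 1565 to 2357 CPM in AT2 cells. Against transitional cells the highest genes were led by Lgi3, Clic5 and Sec14l3, and the list also held Porcn, the enzyme that lipidates Wnt ligands for secretion. Porcn was at 125 and 108 CPM in knockdown and 119 and 131 CPM in control AT1-like cells, against 6.31 to 7.77 CPM in transitional cells. The genes furthest below transitional cells were led by Grip1 and included Pmaip1 (a p53 target that promotes cell death) and Sox11; Grip1 was at 6.6 to 14.6 CPM in AT1-like and 157 to 275 CPM in transitional cells.

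AT1-like cells lay between the other classes in the surfactant programme. All 19 AT2 identity genes that reached 20 CPM were lower than in AT2 cells in every library, and all 18 that reached it beside transitional cells were higher than there. Sftpc, the surfactant protein C gene that defines AT2 cells, was at 15392 and 18129 CPM in knockdown and 8046 and 14210 CPM in control AT1-like cells. It was at 58870 to 84977 CPM in AT2 cells and 586 to 1462 CPM in transitional cells. The summed AT2 identity list in AT1-like cells was 23.2% and 23.5% of its level in AT2 cells in the knockdown libraries and 16.6% and 19.3% in the control libraries. In mesenchymal cells, which should not make surfactant, the same sum was 1.06% to 2.88% of the AT2 level, and in transitional cells 1.59% to 2.91%. The mesenchymal sum was 12.4% and 5.52% of the sum in AT1-like cells in the knockdown libraries and 8.23% and 5.47% in the control libraries. Sterol and fatty acid synthesis genes were likewise lower than in AT2 cells (20 of 20) and higher than in transitional cells (18 of 18), as were MHC class II genes (6 of 6 in both comparisons). Both processes are features of AT2 cells.

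Genes of the transitional state were also high. Of 20 such genes, 18 were higher in AT1-like than in AT2 cells in every library, and 10 were lower and 7 higher than in transitional cells. Krt8 (keratin 8) was at 1405 and 1667 CPM in knockdown and 988 and 1571 CPM in control AT1-like cells, against 515 to 566 CPM in AT2 cells and 1523 to 2359 CPM in transitional cells. Cldn4, a tight junction claudin, was at 267 to 428 CPM in AT1-like cells, against 51.5 to 72.3 CPM in AT2 cells and 695 to 995 CPM in transitional cells. Of YAP/TAZ target genes, 15 of 19 were higher and 2 lower than in AT2 cells in every library. Against transitional cells, 10 of 19 were lower and 4 higher. Of the genes of the Hippo pathway, which restrains YAP and TAZ, 10 of 19 were higher and 1 lower than in AT2 cells. Against transitional cells, 10 of 19 were lower and 1 higher. The median log2 ratios against AT2 and transitional cells were 0.91 and -0.41 for the YAP/TAZ targets. For the Hippo genes they were small, 0.19 and -0.16. No share over all genes is given beside the counts of either list, so no trait of either is read from them. Ankrd1, a nuclear ankyrin repeat protein and YAP/TAZ target, was at 60.3 and 116 CPM in knockdown and 58.4 and 65.6 CPM in control AT1-like cells, against 3.29 to 9.98 CPM in AT2 cells and 142 to 209 CPM in transitional cells.

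The cells differed widely among themselves. After each cell was thinned to 2000 UMIs, which left out 4 and 1 knockdown and 22 and 14 control cells that were shallower, the median AT1-like cell held 23 and 20.5 UMIs of the AT2 identity list in the knockdown libraries and 12 and 16 in the control libraries. The 10th and 90th percentiles were 5 and 118 UMIs in knockdown library 1, 4 and 121 in knockdown library 2, 3 and 63 in control library 1, and 4 and 107 in control library 2. The 10th percentile in AT2 cells was 105 and 119 UMIs in knockdown libraries 1 and 2 and 75 and 92.2 UMIs in control libraries 1 and 2, so the ranges met in every library but control library 1. Transitional genes spread in the same way, with 10th percentiles of 11.1 to 19.7 UMIs and 90th percentiles of 70 to 102 UMIs. All AT1 genes together gave a median of 18 and 16 UMIs in knockdown and 14 and 19 UMIs in control AT1-like cells, against 6 to 9 UMIs in AT2 cells.

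**Figure D2:**
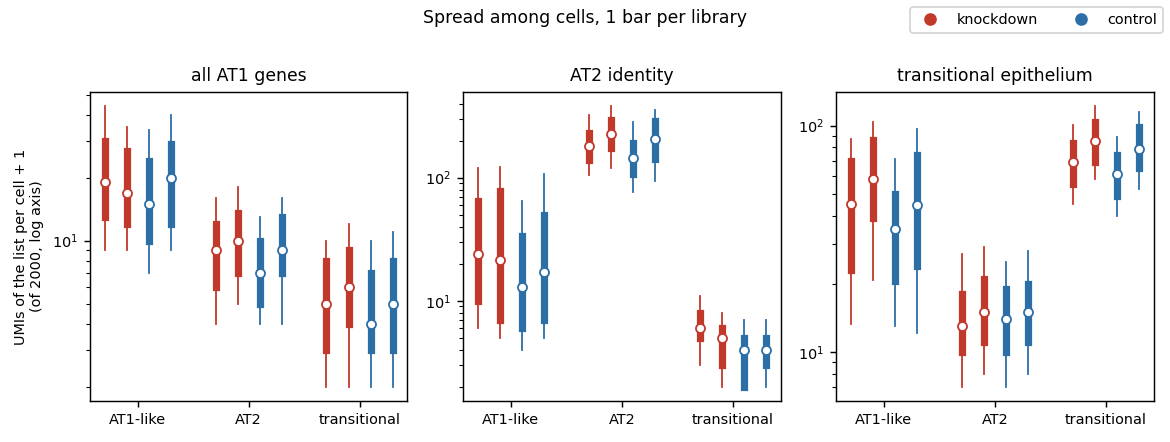
UMIs per cell plus 1 (log axis), of 2000 UMIs per cell, for all AT1 genes, AT2 identity genes and transitional genes; circles are medians, thick bars span the 25th to 75th percentile and thin bars the 10th to 90th, 1 bar per library. For the AT2 identity list the bars of AT1-like cells span from near the transitional cells to the low end of the AT2 cells, except in control library 1.

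Clic5 and Akap5 were seen in a limited share of AT1-like cells at this depth, whereas Ager was seen in most. Ager had a UMI in 80.1% and 79.8% of knockdown and 74.1% and 78.1% of control AT1-like cells. In AT2 cells its share was 72.7% and 73.1% in knockdown and 61.4% and 78.1% in control libraries, so the classes overlapped. Pdpn overlapped too, with 9.43% to 14.1% of AT1-like cells and 10.8% to 12.1% of AT2 cells. Clic5 had a UMI in 21.9% and 19.4% of knockdown and 23.7% and 24.4% of control AT1-like cells, against 0.887% to 2.24% of AT2 cells. Akap5 had one in 37.2% and 44.4% of knockdown and 34.2% and 42.0% of control AT1-like cells. In Myo1f-positive fibroblasts, which should lack both genes, 0 of 101 and 0 of 78 knockdown and 0 of 182 and 0 of 144 control cells had a UMI of either, which allows shares of up to 2.97%, 3.85%, 1.65% and 2.08% in the same order. Ager had a UMI in 8 of 101 and 3 of 78 knockdown and 1 of 182 and 2 of 144 control cells of these fibroblasts. Median depth in these fibroblasts was 5036 and 5898.5 UMIs in knockdown and 3691 and 3902 UMIs in control libraries. Sftpc was no guide in this measure: its UMIs were in 87.6% to 97.5% of AT1-like cells and in 67.0% to 96% of the Myo1f-positive fibroblasts.

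The share of AT1-like cells in the epithelium did not differ detectably between the groups. They made up 16.9% (exact 95% binomial interval 15.5 to 18.4) and 19.5% (17.4 to 21.8) of epithelial cells in the knockdown libraries, against 17.6% (16.0 to 19.2) and 20.9% (19 to 22.9) in the control libraries. The groups overlapped, and knockdown minus control was -1.05 percentage points (two-sided exact permutation test, p = 0.667, where 0.33 is the smallest p that 2 against 2 libraries allow). As a share of all cells the order turned, with 4.14% and 3.83% in the knockdown libraries and 2.62% and 2.64% in the control libraries (p = 0.33, the smallest possible, two-sided exact permutation test). That total includes the mesenchymal cells, which numbered 7371 and 5041 in the knockdown libraries and 11852 and 11329 in the control libraries. AT1-like cells numbered 437 and 249 in the knockdown libraries and 393 and 366 in the control libraries. Intervals cover counting error only.

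Few AT1-like cells carried RNA of the proliferation genes Mki67 and Top2a. At 2000 UMIs per cell, 4.39% and 5.65% of knockdown and 6.74% and 3.98% of control AT1-like cells had a UMI of either gene (two-sided exact permutation test, p = 1). The Myo1f-positive fibroblasts gave 2.97% and 8.97% in knockdown and 5.49% and 2.78% in control libraries. Whether these fibroblasts themselves cycle was not tested, so their share is no floor. The AT1-like share was the higher one in knockdown library 1 and in both control libraries and the lower one in knockdown library 2, and the ranges of both classes overlapped. Transitional cells gave 1.74% and 1.20% in knockdown and 3.98% and 3.30% in control libraries, below the AT1-like share in each library. AT2 cells gave 6.29% and 7.62% in knockdown and 6.21% and 4.55% in control libraries. Without thinning, the shares were 10.5% and 14.9% in knockdown and 12.5% and 8.74% in control AT1-like cells, which turned the difference of the means to 2.09 percentage points higher in the knockdown group.

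**Figure D3:**
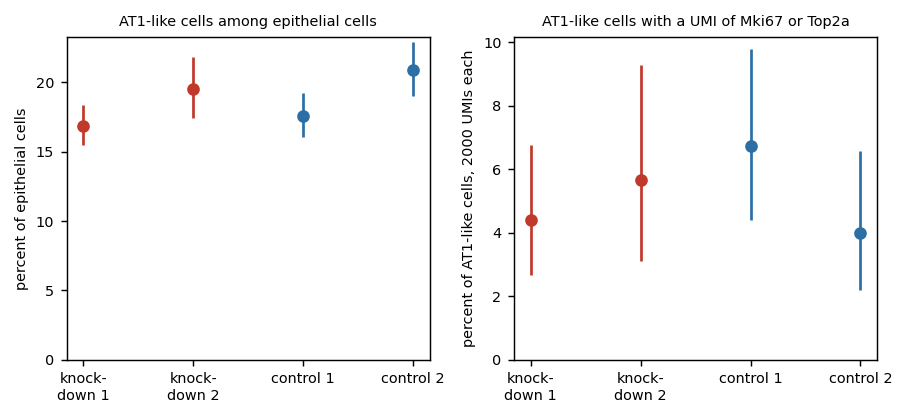
Left, percent of epithelial cells that are AT1-like; right, percent of AT1-like cells with a UMI of Mki67 or Top2a at 2000 UMIs per cell; 1 point per library, knockdown left of control, with exact 95% binomial intervals. The knockdown and control libraries overlap in both panels.

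Between knockdown and control, 54 of 10584 genes tested in AT1-like cells changed (0.510%), 28 higher (0.265%) and 26 lower (0.246%), by edgeR's quasi-likelihood test on counts summed per library with a Benjamini-Hochberg adjusted p under 0.05. The groups were free of overlap in all 54 of these, and in 4312 of the 10584 genes tested. The AT1 markers were not among the called genes. Ager had a log2 fold change (knockdown over control) of 0.22 ± 0.27 (SE), Clic5 of -0.10 ± 0.20, Rtkn2 of -0.09 ± 0.27, Akap5 of 0.17 ± 0.20 and Hopx of 0.66 ± 0.21 (adjusted p of 0.835, 0.916, 0.946, 0.828 and 0.244 by edgeR). Hopx was called with a replicate block (edgeR adjusted p = 0.00567) and in cells of up to 20% mitochondrial UMIs (0.0346). Of the further AT1 genes, 0 of 19 tested passed, and Yap1 and Wwtr1 did not pass in AT1-like cells either. Yap1 was at 89.7 and 97.4 CPM in knockdown and 98.1 and 79.1 CPM in control AT1-like cells, with overlapping groups. Wwtr1 was at 270 and 206 CPM in knockdown and 368 and 287 CPM in control AT1-like cells, which did not overlap (log2 fold change -0.48 ± 0.21, edgeR adjusted p = 0.50). Over all genes tested the median log2 fold change was 0.02. Longer genes had lower fold changes (Spearman's rho -0.41 across 10578 genes), and a similar slope was seen between the 2 knockdown libraries (-0.29) and between the 2 control libraries (-0.32); its part in the results was not tested beyond the alternative with a length offset, which called 45 genes.

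Among called genes with at least 20 CPM in the higher group, the 4 largest rises were in Pcp4, Mmp9, Dapk3 and Cebpb. Dapk3, a kinase of cell death and contraction (chromosome 10, 81183005 to 81193197), was at 48.1 and 56.5 CPM in knockdown and 5.50 and 4.46 CPM in control AT1-like cells (log2 fold change 3.34 ± 0.30, edgeR adjusted p = 6.13e-07). Mmp9, a secreted gelatinase (chromosome 2, 164940780 to 164955850), was at 31.4 and 17.2 CPM in knockdown and 2.5 and 0.557 CPM in control AT1-like cells (3.91 ± 0.50, adjusted p = 5.09e-05). Both were several-fold higher in each knockdown library than in either control library. Below 20 CPM, Ccl6 (a chemokine) was at 15.5 and 8.86 CPM in knockdown and 0.50 and 0 CPM in control AT1-like cells, or 56 UMIs against 1, a 46.8-fold ratio with a counting interval of 8.07 to 1883. Wfdc17 was at 8.93 and 9.41 CPM in knockdown and 1.00 and 1.11 CPM in control AT1-like cells (log2 fold change 3.03 ± 0.58, edgeR adjusted p = 0.0115). Both were called by edgeR and not by DESeq2 (adjusted p of 0.138 for Ccl6 and 0.352 for Wfdc17).

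Pcp4, a calmodulin-binding peptide (chromosome 16, 96467606 to 96525793), was at 31.4 and 25.5 CPM in knockdown and 1.00 and 1.67 CPM in control AT1-like cells (log2 fold change 4.36 ± 0.44, edgeR adjusted p = 1.88e-06). Cebpb, a transcription factor of the C/EBP family (chromosome 2, 167688915 to 167690418), was at 101 and 199 CPM in knockdown and 30.0 and 25.1 CPM in control AT1-like cells (2.41 ± 0.27, adjusted p = 6.17e-06). It was the only 1 of 25 tested epithelial transcription factors that changed.

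These 4 genes also changed in the other 2 classes, where 99 genes in AT2 cells (0.922% of those tested) and 37 in transitional cells (0.304%) changed. The classes share the same libraries, so the comparisons are not independent. Cebpb was at 86.4 and 161 CPM in knockdown and 22.8 and 12.9 CPM in control AT2 cells, and its log2 fold change was 2.74 there and 2.73 in transitional cells. Dapk3 had 2.64 in AT2 and 2.97 in transitional cells, and Mmp9 had 2.71 and 2.47. Mesenchymal cells showed the genes as well: Mmp9 was at 237 and 239 CPM in knockdown and 6.21 and 8.72 CPM in control mesenchymal cells, and Pcp4 at 40.9 and 38.1 CPM in knockdown and 0.0375 and 0.0369 CPM in control mesenchymal cells. In the knockdown libraries the mesenchymal level was higher than the AT1-like level for both Mmp9 and Pcp4, and how much of either AT1-like value is free RNA was not tested.

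Tmem238, Ano8, Hspb1, Ppp1r14b, Srsf9 and Sap30l rose by 1.40 to 1.68 on the log2 scale. Hspb1, a small heat shock protein, was at 78.0 and 96.3 CPM in knockdown and 24.5 and 35.6 CPM in control AT1-like cells (edgeR adjusted p = 0.000467). Ppp1r14b, an inhibitor of protein phosphatase 1, was at 128 and 188 CPM in knockdown and 51.5 and 57.9 CPM in control AT1-like cells (adjusted p = 0.000318, edgeR). Without control library 1, the adjusted p was 0.0953 for Hspb1, 0.0606 for Ppp1r14b and for Srsf9, 0.119 for Sap30l, 0.357 for Tmem238 and 0.365 for Ano8, so all 6 lost their call. Over the left-out libraries, 48 of the 54 calls were kept without knockdown library 1, 26 without knockdown library 2, 13 without control library 1 and 47 without control library 2. DESeq2 kept 21 of the 54; of the rises described here and below it did not call Tmem238 (1), Ano8 (0.321), Sap30l (0.617), Sftpa1 (0.372), Lamp3 (0.0768), Lyz2 (1), Edn1 (0.146) and Plaur (0.0613, all DESeq2 adjusted p). Mmp9, Dapk3, Pcp4, Cebpb, Camk1d, Slit3, Ifitm1 and Ltf were called under all 13 alternatives run.

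**Figure D4:**
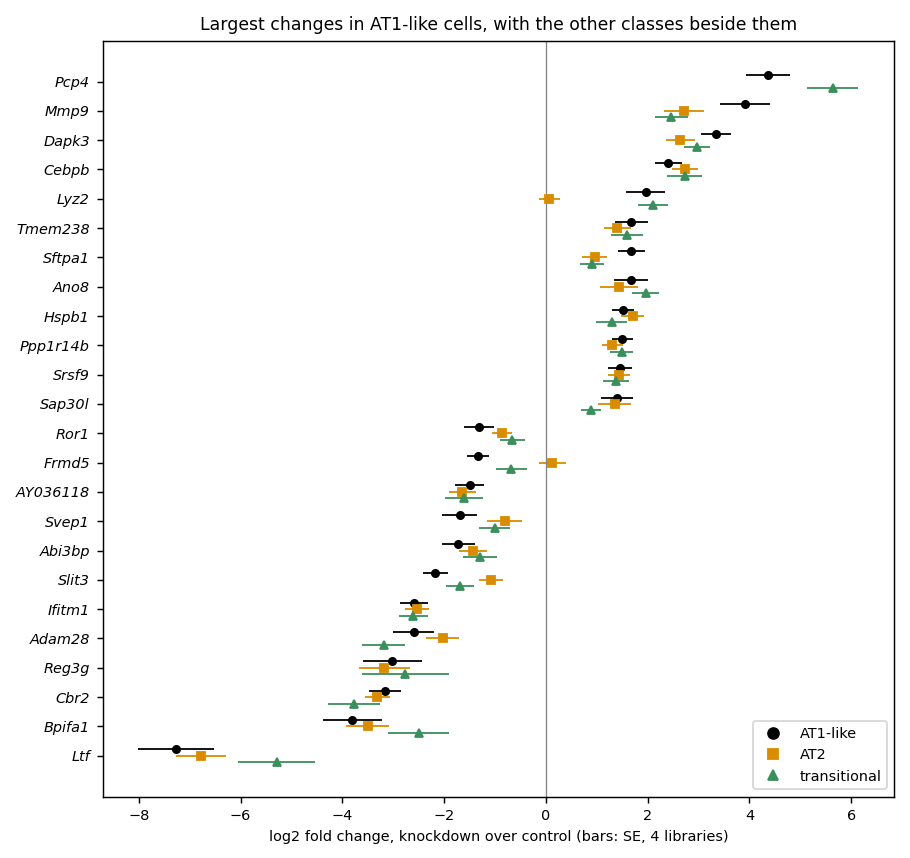
Log2 fold change, knockdown over control, with its SE over 4 libraries, of the 12 largest rises and 12 largest falls among called genes of at least 20 CPM in AT1-like cells, beside the values in AT2 and transitional cells. Pcp4 in AT2 cells is left out because both control libraries were at 0; Lyz2 and Frmd5 are near 0 in AT2 cells.

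Sftpa1, Lamp3 and Lyz2 were the AT2 identity genes that rose in knockdown AT1-like cells. Of 19 tested, 3 rose, 0 fell and 16 did not pass, and the list's median log2 fold change was 0.66 against 0.02 over all genes tested. In transitional cells the list's median was 0.69, and 2 of 19 tested rose (Cxcl15 and Lyz2). In AT2 cells it was 0.19, and 1 of 20 rose (Sftpa1). Sftpa1 (surfactant protein A) was at 223 and 472 CPM in knockdown and 98.1 and 116 CPM in control AT1-like cells (log2 fold change 1.68 ± 0.26, edgeR adjusted p = 0.000962). Lamp3, a protein of lamellar bodies, the organelles that store surfactant, was at 148 and 203 CPM in knockdown and 90.6 and 90.8 CPM in control AT1-like cells (0.93 ± 0.20, adjusted p = 0.0278). Lyz2, a lysozyme made by AT2 cells and macrophages, was at 26.0 and 82.5 CPM in knockdown and 10.0 and 16.7 CPM in control AT1-like cells (1.96 ± 0.39, adjusted p = 0.0123). Knockdown library 2 was the highest of the 4 libraries for each of these genes.

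Sftpc did not pass in AT1-like cells (15457 and 18110 CPM in knockdown, 7932 and 14118 CPM in control, log2 fold change 0.59 ± 0.34, edgeR adjusted p = 0.621). The calls on AT2 identity genes rested on single libraries: 0 of the 3 remained without control library 1, where 0 list members were called, and without knockdown library 2 only Sftpa1 was called. AT2 identity RNA outside the epithelium moved the same way, summing to 2752 and 1510 CPM in knockdown and 1084 and 1134 CPM in control mesenchymal cells; its part in the result was not tested.

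Of the YAP/TAZ target genes, Ccn2 alone passed the test in AT1-like cells. Of 21 tested, 1 rose, 0 fell and 20 did not pass, with a median log2 fold change of -0.01. The gene that rose was Ccn2 (connective tissue growth factor, chromosome 10, 24595442 to 24598683), a secreted matrix-associated protein. It was at 485 and 772 CPM in knockdown and 270 and 308 CPM in control AT1-like cells (log2 fold change 1.10 ± 0.23, edgeR adjusted p = 0.0208), so the groups did not overlap. It was not called without knockdown library 2 (adjusted p = 0.645) or without control library 1 (0.544). Mesenchymal cells held less Ccn2, with 108 and 145 CPM in knockdown and 95.9 and 80.3 CPM in control libraries. Ccn1, its paralog, was at 1128 and 1356 CPM in knockdown and 903 and 816 CPM in control AT1-like cells and did not pass (0.51 ± 0.23, adjusted p = 0.509).

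Edn1, the vasoconstrictor endothelin 1 (chromosome 13, 42301476 to 42307990), was the 1 gene that rose among 18 tested signals made by AT1 cells. It was at 71.8 and 73.1 CPM in knockdown and 35 and 35.1 CPM in control AT1-like cells (log2 fold change 1.03 ± 0.20, edgeR adjusted p = 0.0123). Transitional cells held more Edn1 than AT1-like cells, with 129 and 110 CPM in knockdown and 85.3 and 77.4 CPM in control libraries (0.52 ± 0.17, edgeR adjusted p = 0.336). AT2 cells held 19.2 and 14.1 CPM in knockdown and 15.6 and 17.1 CPM in control libraries, and mesenchymal cells 1.69 to 3.62 CPM. The AT1-like effect was not shown to differ from that in transitional (edgeR adjusted p = 0.527) or AT2 cells (0.291). Edn1 was not called without control library 1 (adjusted p = 0.229). Plaur, the urokinase receptor, rose as the 1 of 20 transitional genes that changed. It was at 95.9 and 111 CPM in knockdown and 47.0 and 53.5 CPM in control AT1-like cells (1.02 ± 0.20, adjusted p = 0.0115, edgeR). It was not called without knockdown library 2 or without control library 1. Plaur was also called higher in AT2 and in transitional cells, as the 1 of 20 list members that passed in each class.

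Wnt genes were examined because Wnt4, a secreted ligand, is in the title of the series as part of fibroblast and epithelial crosstalk. Wnt4 itself was low in AT1-like cells, at 6.21 and 9.41 CPM in knockdown and 3.50 and 10.0 CPM in control libraries (log2 fold change 0.18 ± 0.46, edgeR adjusted p = 0.932), against 73.1 and 93.5 CPM in knockdown and 32.8 and 31.9 CPM in control mesenchymal cells. Of 17 Wnt receptor genes tested, 1 fell and 0 rose: Ror1, a receptor of noncanonical Wnt signals, was at 22.5 and 20.5 CPM in knockdown and 73.6 and 31.2 CPM in control AT1-like cells (-1.31 ± 0.29, adjusted p = 0.0362). Mesenchymal cells had 206 and 184 CPM of Ror1 in knockdown and 325 and 294 CPM in control libraries, and its adjusted p was 1 without control library 1 and 0.24 by DESeq2. Of 18 Wnt/beta-catenin target genes, 7 were tested and 0 passed; Axin2 and Lef1, widely used readouts of the pathway, were too low to be tested.

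Promoters are shown of 3 genes, chosen for their results in AT1-like cells. Edn1 rose there and is not on the list of YAP/TAZ targets. Ccn1 and F3 are on that list and had effects that differed between AT1-like and AT2 cells, as given below. The letters are those of RefSeq on GRCm38.p6, 250 bases before and 50 after the start site, read along the gene's strand. Capitals mark CATTCC, the reverse complement of GGAATG, the core motif of TEAD factors. Both strands were searched.
Ccn1 (chr3:145649936-145650235, minus strand): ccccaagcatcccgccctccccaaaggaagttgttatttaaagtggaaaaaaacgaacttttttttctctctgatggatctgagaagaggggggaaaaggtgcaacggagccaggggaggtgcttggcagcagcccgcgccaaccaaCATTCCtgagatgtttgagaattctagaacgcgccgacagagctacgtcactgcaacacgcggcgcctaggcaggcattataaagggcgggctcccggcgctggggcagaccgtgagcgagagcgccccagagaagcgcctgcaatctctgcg
Edn1 (chr13:42301226-42301525, plus strand): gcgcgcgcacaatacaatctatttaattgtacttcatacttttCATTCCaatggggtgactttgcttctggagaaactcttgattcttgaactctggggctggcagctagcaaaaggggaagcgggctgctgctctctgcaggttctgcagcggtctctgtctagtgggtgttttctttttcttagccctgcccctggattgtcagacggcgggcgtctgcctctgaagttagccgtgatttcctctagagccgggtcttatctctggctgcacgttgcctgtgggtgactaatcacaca
F3 (chr3:121723287-121723586, plus strand): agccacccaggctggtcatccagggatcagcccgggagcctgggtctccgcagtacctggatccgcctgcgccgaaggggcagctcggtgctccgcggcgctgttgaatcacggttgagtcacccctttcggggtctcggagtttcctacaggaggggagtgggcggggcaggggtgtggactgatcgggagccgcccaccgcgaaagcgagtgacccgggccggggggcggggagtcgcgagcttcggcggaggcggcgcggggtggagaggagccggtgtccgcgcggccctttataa
Ccn1 and Edn1 held 1 match each, whose first base was 103 and 207 bases before the start site, and F3 held 0 in this window. The motif was found in 14.66% of 32851 promoters of the same length, and a match is a description of the letters only. Ccn2 and Rtkn2 had no entry among the RefSeq promoters used and are not shown.

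Ltf, Cbr2, Reg3g and Bpifa1 were among the largest falls. Ltf (lactotransferrin, chromosome 9, 111019271 to 111042767) was at 0 and 0.554 CPM in knockdown and 65.5 and 21.2 CPM in control AT1-like cells. That is 1 UMI in knockdown and 169 UMIs in control AT1-like cells, which is 202-fold lower in CPM in the knockdown group, with a counting interval of 35.8 to 8026. Cbr2 (carbonyl reductase 2, chromosome 11, 120729489 to 120732114) was at 6.99 and 26.6 CPM in knockdown and 149 and 128 CPM in control AT1-like cells (log2 fold change -3.17 ± 0.31, edgeR adjusted p = 1.64e-06). Reg3g, an antimicrobial lectin, was at 1.55 and 89.7 CPM in knockdown and 435 and 246 CPM in control AT1-like cells (-3.02 ± 0.57, adjusted p = 0.0115). Both knockdown libraries were below both control libraries, and knockdown library 1 was the lowest for each of these 3 genes. Reg3g was not called without control library 1 (adjusted p = 0.466) or by DESeq2 (1), and Cbr2 was not called by DESeq2 (0.125).

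Bpifa1, an airway surface protein, was at 0 and 18.3 CPM in knockdown and 48.0 and 172 CPM in control AT1-like cells (log2 fold change -3.81 ± 0.58, edgeR adjusted p = 0.000774). It was the 1 of 5 tested secretory airway markers that was called lower, and DESeq2 did not call it (adjusted p = 1). Of these 5, 4 had a negative log2 fold change, and the median was -1.14. In AT2 cells 4 of 6 tested markers were called lower, Bpifa1 among them, and in transitional cells 0 of 6 passed. The summed secretory airway markers were at 30.5 and 208 CPM in knockdown and 1074 and 388 CPM in control AT1-like cells, while mesenchymal cells of the same libraries had 26.8 and 298.5 CPM in knockdown and 1388 and 307.5 CPM in control libraries. Mesenchymal Reg3g was at 1.07 and 139 CPM in knockdown and 543 and 298 CPM in control libraries, Ltf at 0.124 and 1.39 CPM in knockdown and 53.5 and 13.5 CPM in control libraries, and Cbr2 at 1.42 and 22.6 CPM in knockdown and 162 and 111 CPM in control libraries. Mesenchymal Bpifa1 was at 0.149 and 22.7 CPM in knockdown and 71.3 and 76.1 CPM in control libraries. For each of the 4 genes the libraries stood in the same order in AT1-like and mesenchymal cells, though in knockdown library 1 Cbr2 was several-fold higher in AT1-like cells, and how much of these falls is free RNA from other cells was not tested. Basal cell markers summed to 1.86 and 2.81 CPM in knockdown and 29.7 and 19.6 CPM in control AT1-like cells, and ciliated markers to 14.1 and 9.55 CPM in knockdown and 21 and 13.4 CPM in control AT1-like cells.

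Ifitm1 (an interferon-inducible membrane protein) was at 8.15 and 8.30 CPM in knockdown and 56.0 and 42.3 CPM in control AT1-like cells (log2 fold change -2.60 ± 0.28, edgeR adjusted p = 3.24e-06). Adam28, a membrane metalloprotease, was at 5.05 and 3.32 CPM in knockdown and 36.0 and 15.6 CPM in control AT1-like cells (-2.60 ± 0.41, adjusted p = 0.00101). Slit3 and several other falls were in genes that mesenchymal cells held at higher levels. Slit3, a secreted guidance ligand (chromosome 11, 35121224 to 35708507), was at 21 and 10.5 CPM in knockdown and 73.1 and 72.9 CPM in control AT1-like cells (-2.17 ± 0.25, adjusted p = 1.08e-05), and mesenchymal cells had 877 and 935 CPM in knockdown and 2223 and 1914 CPM in control libraries. Abi3bp, Svep1, Frmd5 and Col1a2 fell as well, by 0.99 to 1.72 on the log2 scale, with mesenchymal levels of 199.8 to 2739 CPM. Without control library 1, Adam28 (adjusted p = 0.378), Abi3bp (0.587), Svep1 (0.357) and Col1a2 (0.503) were not called, DESeq2 did not call Abi3bp (0.0817) or Svep1 (0.174), and without knockdown library 2 neither were Svep1 (0.125) and Col1a2 (0.809). Of 9 fibroblast markers tested, 1 fell (Col1a2) and 0 rose, with a median log2 fold change of -0.68. The summed fibroblast markers in AT1-like cells were at 9.97% and 6.76% of their mesenchymal level in the knockdown libraries and 13.8% and 9.78% in the control libraries, and at like shares in AT2 cells (8.60% and 5.96% in knockdown, 11.6% and 7.91% in control). Their part in the falls was not tested.

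Of markers of other cell types, the 8 immune markers summed to 20.8 and 15.2 CPM in knockdown and 15.4 and 10.6 CPM in control AT1-like cells, with 0 and 2 knockdown and 4 and 5 control members at 0. The 8 endothelial markers summed to 8.92 to 12.4 CPM over the 4 libraries. In the remaining lists, 0 genes passed: sterol and fatty acid synthesis (0 of 21), the Hippo pathway (0 of 20), BMP and TGF-beta response (0 of 19), FGF and EGF receptors (0 of 16), alveolar basement membrane (0 of 17), caveolae, water and ion transport (0 of 17), cell junctions (0 of 17), p53 and senescence genes (0 of 15), immediate early and heat shock genes (0 of 16), MHC class II (0 of 7) and the Notch pathway (0 of 7). The same was found for S phase (0 of 20) and G2/M phase genes (0 of 15), hypoxia and glycolysis (0 of 12), inflammatory genes (0 of 11), the interferon response (0 of 9), and for the 1 gene tested in each of the immune, endothelial, mesothelial and ciliated lists. Over all genes, 962 had an unadjusted p under 0.05 (9.09% of those tested).

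Whether the knockdown effect differed between AT1-like and AT2 cells was tested as an interaction over 8 sums with the library as a block, and 19 of 11318 genes did so (0.168%), 15 with a higher and 4 with a lower effect in AT1-like cells. F3 (tissue factor, the starter of blood clotting and a YAP/TAZ target; chromosome 3, 121723537 to 121735048) had the smallest p. It was at 405 and 446 CPM in knockdown and 294 and 366 CPM in control AT1-like cells, against 35.9 and 27.1 CPM in knockdown and 60.7 and 65.2 CPM in control AT2 cells. Knockdown libraries were the higher ones in AT1-like cells (log2 fold change 0.35 ± 0.21, not passed) and the lower ones in AT2 cells (-0.97 ± 0.20, edgeR adjusted p = 0.00338), and the effects differed by 1.28 ± 0.18 (adjusted p = 2.07e-06). This held under all 12 alternatives run.

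S100a6 (calcyclin, a calcium-binding protein) was at 1661 and 1974 CPM in knockdown and 1701 and 2072 CPM in control AT1-like cells, against 257 and 338 CPM in knockdown and 528 and 519 CPM in control AT2 cells. The effects differed by 0.78 ± 0.11 (edgeR adjusted p = 6.05e-06), also under all 12 alternatives. Ccn1 was at 556 and 357 CPM in knockdown and 591 and 522 CPM in control AT2 cells, below the AT1-like levels given above, and its effects differed by 0.80 ± 0.13 (adjusted p = 7.37e-05), but not without knockdown library 2 (0.600). Ccn2 was at 64.7 and 48.3 CPM in knockdown and 63.0 and 36.5 CPM in control AT2 cells, and its difference of 0.77 ± 0.20 did not pass (adjusted p = 0.102).

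Of 20 AT2 identity genes tested, 6 had a higher knockdown effect in AT1-like than in AT2 cells (Sftpa1, Sftpc, Cxcl15, Lamp3, Chil1 and Lyz2), 0 had a lower one and 14 did not pass. The median difference of the list was 0.45 on the log2 scale, against 0.02 over all genes tested. Between AT1-like and transitional cells, 0 of 19 tested AT2 identity genes had an effect that differed. The median difference there was 0.006, against 0.0075 over all genes tested. The effect on Sftpc was higher in AT1-like than in AT2 cells by 0.51 ± 0.08 on the log2 scale (edgeR adjusted p = 2.53e-05). Lyz2 was at 564 and 521 CPM in knockdown and 436 and 596 CPM in control AT2 cells, which overlapped, and the effects differed by 1.82 ± 0.29 (adjusted p = 2.53e-05, edgeR). The Sftpc difference was not called without knockdown library 1 (0.228) or knockdown library 2 (0.126), and that of Lyz2 was not called without knockdown library 2 (0.560).

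**Figure D5:**
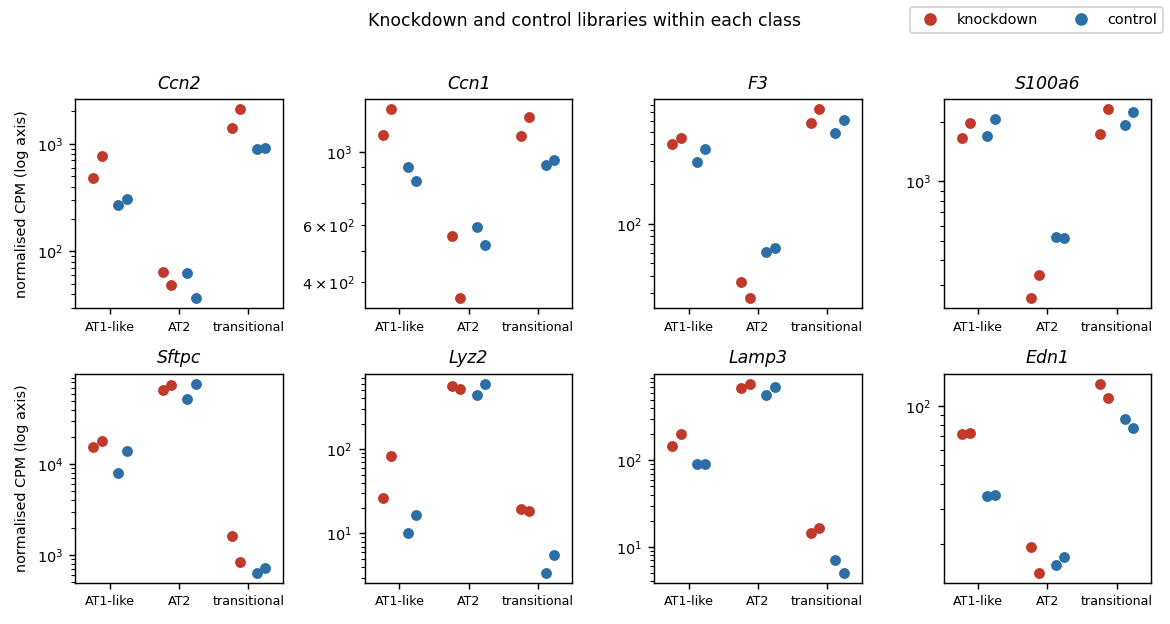
Normalised CPM (log axis) of 8 genes in AT1-like, AT2 and transitional cells, 1 point per library, knockdown in red left of control in blue. F3 and S100a6 are lower in the knockdown libraries among AT2 cells, and Ccn2 and Edn1 are higher in them among AT1-like and among transitional cells.

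Against transitional cells, 5 of 12000 genes had an effect that differed (0.0417%), 2 higher and 3 lower in AT1-like cells. Scd1, a desaturase of fatty acids, was at 1789 and 2011 CPM in knockdown and 1989 and 2049 CPM in control AT1-like cells, against 316 and 374 CPM in knockdown and 217 and 284 CPM in control transitional cells (difference -0.55 ± 0.10, edgeR adjusted p = 0.00274, and 0.633 without control library 1). Meg3, a long noncoding RNA, was at 50.9 and 36.0 CPM in knockdown and 63.6 and 21.7 CPM in control AT1-like cells, against 12.6 and 13.7 CPM in knockdown and 33.5 and 32.6 CPM in control transitional cells (1.35 ± 0.27, adjusted p = 0.0165, and 0.366 without knockdown library 1). Ccn2 was at 1412 and 2104 CPM in knockdown and 888 and 913 CPM in control transitional cells, and its effects in the 2 classes differed by 0.16 ± 0.10 (adjusted p = 0.848). DESeq2 called 0 genes in this comparison, with 72 at an unadjusted p under 0.05.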

How the data were processed

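Single-cell RNA was profiled in 2 knockdown and 2 control libraries using the 10x Genomics Multiome chemistry (RNA and open chromatin from one cell), per the labels' protocols, which also name a column RNA extraction. The authors deposited raw UMI counts of 32285 genes in 45936 cells, and the matrix sums equalled the deposited UMIs per cell in 45936 of 45936 cells. Per the submitters' processing notes the reads were placed on GRCm38 (mm10); the sources used here give no aligner. Deposited cells had at most 35.0% mitochondrial UMIs, a percent that the authors deposited per cell. The deposited doublet enrichment, a ratio made by the authors with no description in the file headers, was used only for an alternative, and 85 AT1-like cells had no such value. Another 51 deposited cell columns were not used, and chromatin profiles were not analysed here. No doublet caller was run.

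Classes are the authors' deposited annotation and cluster numbers. The epithelium was clusters 9, 14 and 32 of class AT2, cycling AT2 and transitional cells; mesenchymal cells were the deposited fibroblast, smooth muscle, EMT-like and unknown mesenchymal classes, without mesothelial and Myo1f-positive cells. Clusters 19 and 23 of class AT2 entered no class. Cells are not replicates, so the counts of each class were added up within a library and tested with edgeR 4.0.16 in R 4.3.3 (TMM, filterByExpr, quasi-likelihood test, Benjamini-Hochberg over all genes tested, adjusted p under 0.05). Every adjusted p of a gene is edgeR's unless another tool is named. Levels between classes are CPM from one joint TMM scaling of all classes, levels between groups are CPM from the fit of each class, and mesenchymal and list sums are CPM without TMM. Ratios between classes used a pseudocount of 1 CPM. Differences between classes were not tested, since the clusters were made from these genes. Counts of list members higher or lower between classes have no share over all genes beside them and are a description. The script was tested on simulated data. Positions come from GENCODE M21 on GRCm38, where 32158 of 32285 genes matched.

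Genes named are the 12 largest called rises and falls with groups that do not overlap and at least 20 CPM in the higher group, called members of 32 gene lists, the AT1 markers, Yap1, Wwtr1, up to 10 genes in each direction between classes, and up to 6 in each direction per interaction; one gene that this rule names between classes is not reported here. The remaining called genes named under single libraries or alternatives, Ccl6, Wfdc17, and Ccn2 in AT2 cells, were chosen after their values were seen. The class, its markers and the lists were chosen with earlier results of these data known. Alternatives were DESeq2 1.42.0 as a tool and for size factors, limma 3.58.1 voom, no count filter, cells up to 20% mitochondrial UMIs, thinning to 2000 UMIs, leaving out the 10% of cells highest in doublet enrichment, an offset for gene length, a replicate block and leaving out each library. Those for the AT2 and transitional effects were chosen after seeing the data.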

Additional observations from a re-analysis of the deposited data

Results flagged for a closer look

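The knockdown effect in AT1-like cells differed from that in AT2 cells for 19 genes and from that in transitional cells for 5 genes by the interaction test (edgeR, adjusted p under 0.05). Values are given for 15 of them, up to 6 in each direction with the smallest p. Against AT2 cells, the log2 effect (knockdown over control, AT1-like minus AT2) was higher for F3 by 1.28, S100a6 by 0.78, Sftpc by 0.51, Lyz2 by 1.82, Ccn1 by 0.80 and Chil1 by 0.93. It was lower for Frmd5 (-1.41), Pcdh9 (-2.96), Gdf15 (-1.46) and Synpr (-2.40). F3 and S100a6 were called under 12 of 12 alternatives, Ccn1 under 10 of 12, Sftpc, Lyz2 and Chil1 under 9 of 12, Frmd5 under 7, Gdf15 under 5 and Synpr under 4 of 12, and Pcdh9 under 5 of the 9 that gave a value. Synpr (synaptoporin) was at 18.3 and 6.64 CPM in knockdown and 13.0 and 18.9 CPM in control AT1-like cells, against 11.2 and 13.0 CPM in knockdown and 2.23 and 2.77 CPM in control AT2 cells. Gdf15, a stress-induced cytokine, was at 22.1 and 49.3 CPM in knockdown and 29.0 and 44.0 CPM in control AT1-like cells, against 35.9 and 28.3 CPM in knockdown and 7.59 and 20.4 CPM in control AT2 cells.

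Against transitional cells, the difference was 1.35 for Meg3, 0.53 for Timp3, -4.27 for Ano3, -0.55 for Scd1 and -0.61 for Mdm2. Scd1 was called under 9 of 12 alternatives, Ano3 under 8 of 10, Meg3 under 6, Mdm2 under 5 and Timp3 under 4 of 12. Without control library 1 the adjusted p was 0.633 for Scd1, 0.862 for Ano3, 0.528 for Mdm2 and 0.633 for Timp3. Ano3, an anoctamin, was at 1.55 and 0.554 CPM in knockdown and 12 and 2.23 CPM in control AT1-like cells, against 5.97 and 4.65 CPM in knockdown and 2.47 and 0.989 CPM in control transitional cells. Mdm2, the ubiquitin ligase of p53, was at 138 and 137 CPM in knockdown and 194 and 146 CPM in control AT1-like cells, against 259.6 and 252 CPM in knockdown and 223 and 189 CPM in control transitional cells.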

How the results depend on the processing

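In AT1-like cells 54 genes changed; DESeq2 called 22, no count filter 146, cells up to 20% mitochondrial UMIs 119 and the replicate block 282, and leaving out each library gave 15 (without control library 1) to 140 (without control library 2). DESeq2 size factors (63), limma voom (46), thinning (49), doublet enrichment (42) and the length offset (45) stayed within 1.5 times, and 29 of the 54 genes were called again after thinning and 38 with the length offset. Same-numbered libraries deviated together with a correlation of 0.16 over 10584 genes; with only 2 pairs the numbers are not shown to pair the libraries. In AT2 cells 99 genes changed, against 27 by DESeq2, 63 with the mitochondrial limit, 42 after thinning, 400 with the replicate block and 40 to 391 without a library. In transitional cells 37 changed, against 224 with no count filter, 1271 with the replicate block and 53 to 254 without a library.

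The AT1-like minus AT2 count of 19 became 2 by DESeq2, 6 with the mitochondrial limit, 8 after thinning, 12 with the length offset and 11 to 32 without a library; the AT1-like minus transitional count of 5 became 0 by DESeq2, 3 with the mitochondrial limit or thinning, 1 without the cells highest in doublet enrichment and 9 to 24 without a library. The cause of these shifts was not tested. The difference in the AT1-like share of epithelial cells, -1.05 percentage points, was 1.36 over all cells, 0.135 with the mitochondrial limit, -2.71 to 0.612 without a library, and -0.721 and -1.38 within the replicate numbers taken as pairs. The cycling difference of -0.341 points was 2.09 without thinning and -1.72 to 1.04 without a library.

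Of markers not called, Ager turned to -0.06 and -0.11 without knockdown library 1 and without control library 1, and its range without a library reached 0.62. Clic5 turned to 0.042 with the mitochondrial limit, 0.030 with the length offset and ranged from -0.31 to 0.13 without a library; Rtkn2 turned to 0.026 with the mitochondrial limit, 0.0050 with the doublet limit, 0.023 with the length offset and ranged from -0.98 to 0.39; Yap1 turned to -0.044 after thinning and ranged from -0.11 to 0.22. Hopx was called with the mitochondrial limit (adjusted p = 0.0346, edgeR) and with the replicate block (0.00567). Over single genes and alternatives, 713 verdicts stayed, 234 lost the call, 5 gained it and 13 turned direction. Depth limits low genes such as Wnt4 and Axin2, and 2 libraries per group limit every test.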
